A study of Homo sapiens with 16 samples.

Results

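The SLC25 genes encode the mitochondrial carrier family, the transporters of the inner mitochondrial membrane. The 48 genes described here are all symbols of the form SLC25A followed by a number, of 28277 gene symbols in each of 2 deposited expression tables. Each carrier is built from repeats of the same membrane-spanning module and exchanges or imports a small molecule, such as ADP for ATP, phosphate, citrate, an amino acid, a cofactor or iron. The family thereby links the respiratory chain and the matrix enzymes with the cytosol, and cells that secrete much protein, as antibody-secreting plasma cells do, depend on the ATP it exports.

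The data are messenger RNA profiles of INA6 and JJN3, established human multiple myeloma cell lines labelled as plasma cells. INA6 is known to depend on interleukin 6, and JJN3 grows without it. In the knockdown libraries a Cas9 that no longer cuts, joined to a transcriptional repressor, was directed at KANSL2, a subunit of the NSL histone acetyltransferase complex, and in the control libraries (nt) the same system carried a non-targeting guide. All 12 libraries are labelled untreated, with 3 knockdown and 3 non-targeting libraries per line. No source used here says whether the 3 libraries of a group come from separate cultures. The p-values therefore rest on a spread among libraries that may be technical. The comparison asks which genes change when KANSL2 is repressed.

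Values are regularised log (rlog) values on the log2 scale, normalised by the authors in each line separately, so that levels are not comparable between lines. The transformation draws genes with few reads towards their mean and understates their changes. Differences are knockdown minus non-targeting, so a positive value means a higher level after knockdown. A gene was tested if its mean over the 6 libraries of a line was at least 3, and called if its Benjamini-Hochberg adjusted p from limma over all tested genes was below 0.05. The tables give no counts, and the depth of each library is thus unknown. Both lines kept the 8 plasma cell markers above that minimum. Over those markers the mean rlog value ran from 12.49 to 12.64 in INA6 knockdown libraries, against 12.94 to 12.97 in INA6 non-targeting libraries, and from 11.55 to 11.62 in JJN3 knockdown libraries, against 11.44 to 11.49 in JJN3 non-targeting libraries. Of these 8, 1 rose and 6 fell in INA6, and 4 rose and 1 fell in JJN3. Of 17 markers of B, T and NK, myeloid and stromal cells, 4 in INA6 and 3 in JJN3 reached the minimum. The B cell marker mean was 0.51 to 0.54 in JJN3 knockdown libraries, against 0.35 to 0.37 in JJN3 non-targeting libraries. In JJN3 the B cell marker MS4A1 rose by 0.64 and the T cell marker CD3E fell by 0.18. In bulk RNA, fewer cells of a type and less RNA per cell cannot be told apart. The part of these marker shifts in the carrier results was not tested. KANSL2 itself differed by −0.39 in INA6 (SE 0.0625, limma adjusted p = 3.06e-05) and by −1.21 in JJN3 (SE 0.0559, limma adjusted p = 1.48e-16).

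Of the 48 carriers, 39 were tested in INA6 and 37 in JJN3, and each carrier below the minimum is accounted for further on. In INA6, 9 carriers rose and 9 fell, 46.2% of those tested, where 48.6% of the 12511 tested genes were called (24.7% higher and 24.0% lower). In JJN3, 13 rose and 9 fell, 59.5% of those tested, where 51.0% of the 12282 tested genes were called (25.5% higher and 25.5% lower). The share of carriers called was thus near that of all genes, and the family as a whole did not move one way: its median difference was 0.02 in each line, where all tested genes had a median of 0.00. Knockdown and non-targeting libraries did not overlap for 22 of the 39 carriers in INA6 (55.2% of all tested genes) and for 26 of the 37 in JJN3 (56.1% of all tested genes). The changes were small, from −0.52 to 0.41 in INA6 and from −0.40 to 0.37 in JJN3. With each library centred on its median, 14 carriers were higher and 9 lower in INA6 (all genes 3904 higher and 2400 lower), and 14 were higher and 7 lower in JJN3 (all genes 3768 higher and 2571 lower).

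**Figure D1:**
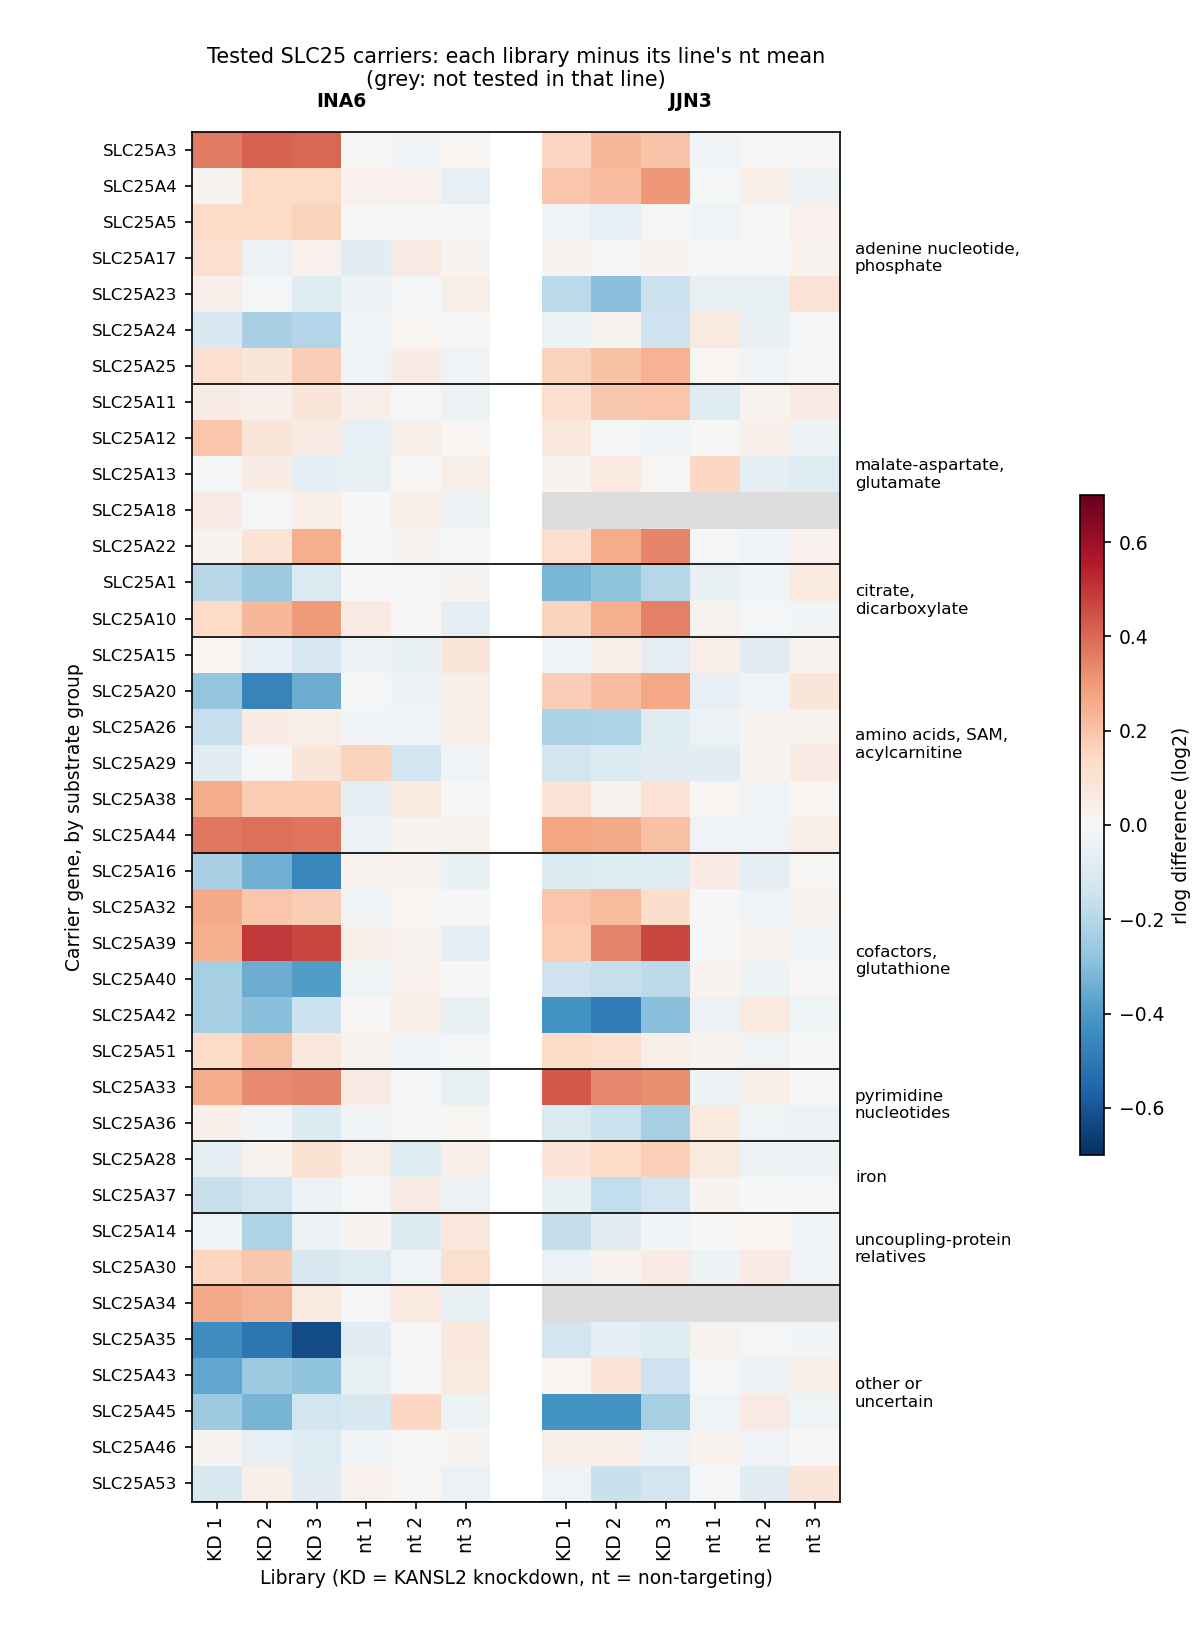
Heat map of the tested carriers but 1 (rows, by substrate group) in each library (columns), as the rlog value minus the mean of the 3 non-targeting libraries of that line, on the log2 scale. Rows with 3 strongly coloured knockdown cells in both lines include SLC25A39, SLC25A33 and SLC25A44 (higher) and SLC25A42 and SLC25A45 (lower), while SLC25A20 is lower in INA6 and higher in JJN3.

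Of the 37 carriers tested in both lines, 6 rose in both, 5 fell in both, 1 was called in opposite directions and 10 were called in neither. Over the 11137 genes tested in both lines, 14.2% rose in both, 12.3% fell in both and 3.91% were called in opposite directions. The 6 that rose carry glutathione (SLC25A39), branched-chain amino acids (SLC25A44), phosphate (SLC25A3), pyrimidine nucleotides (SLC25A33), dicarboxylates (SLC25A10) and folate (SLC25A32). The 5 that fell were the citrate carrier SLC25A1, the second glutathione carrier SLC25A40, the coenzyme A carrier SLC25A42, and SLC25A45 and SLC25A35, whose substrates are less well established. The JJN3 call of SLC25A35 was lost under all 11 alternatives that gave a value (adjusted p from 0.0512 to 0.189), so its place among the 5 rests on the settings used here. The sign of the difference was the same in 33 of the 37 carriers (89.2%, against 69.2% of all genes tested in both lines). Some of these signs belong to values near 0 and changed under alternatives, such as those of SLC25A17 (0.04 in INA6 and 0.00 in JJN3). As a description across genes, which are not independent replicates, Pearson's r between the lines' differences was 0.657 over the 37 carriers and 0.492 over all 11137 genes. The 2 lines share no control library.

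**Figure D2:**
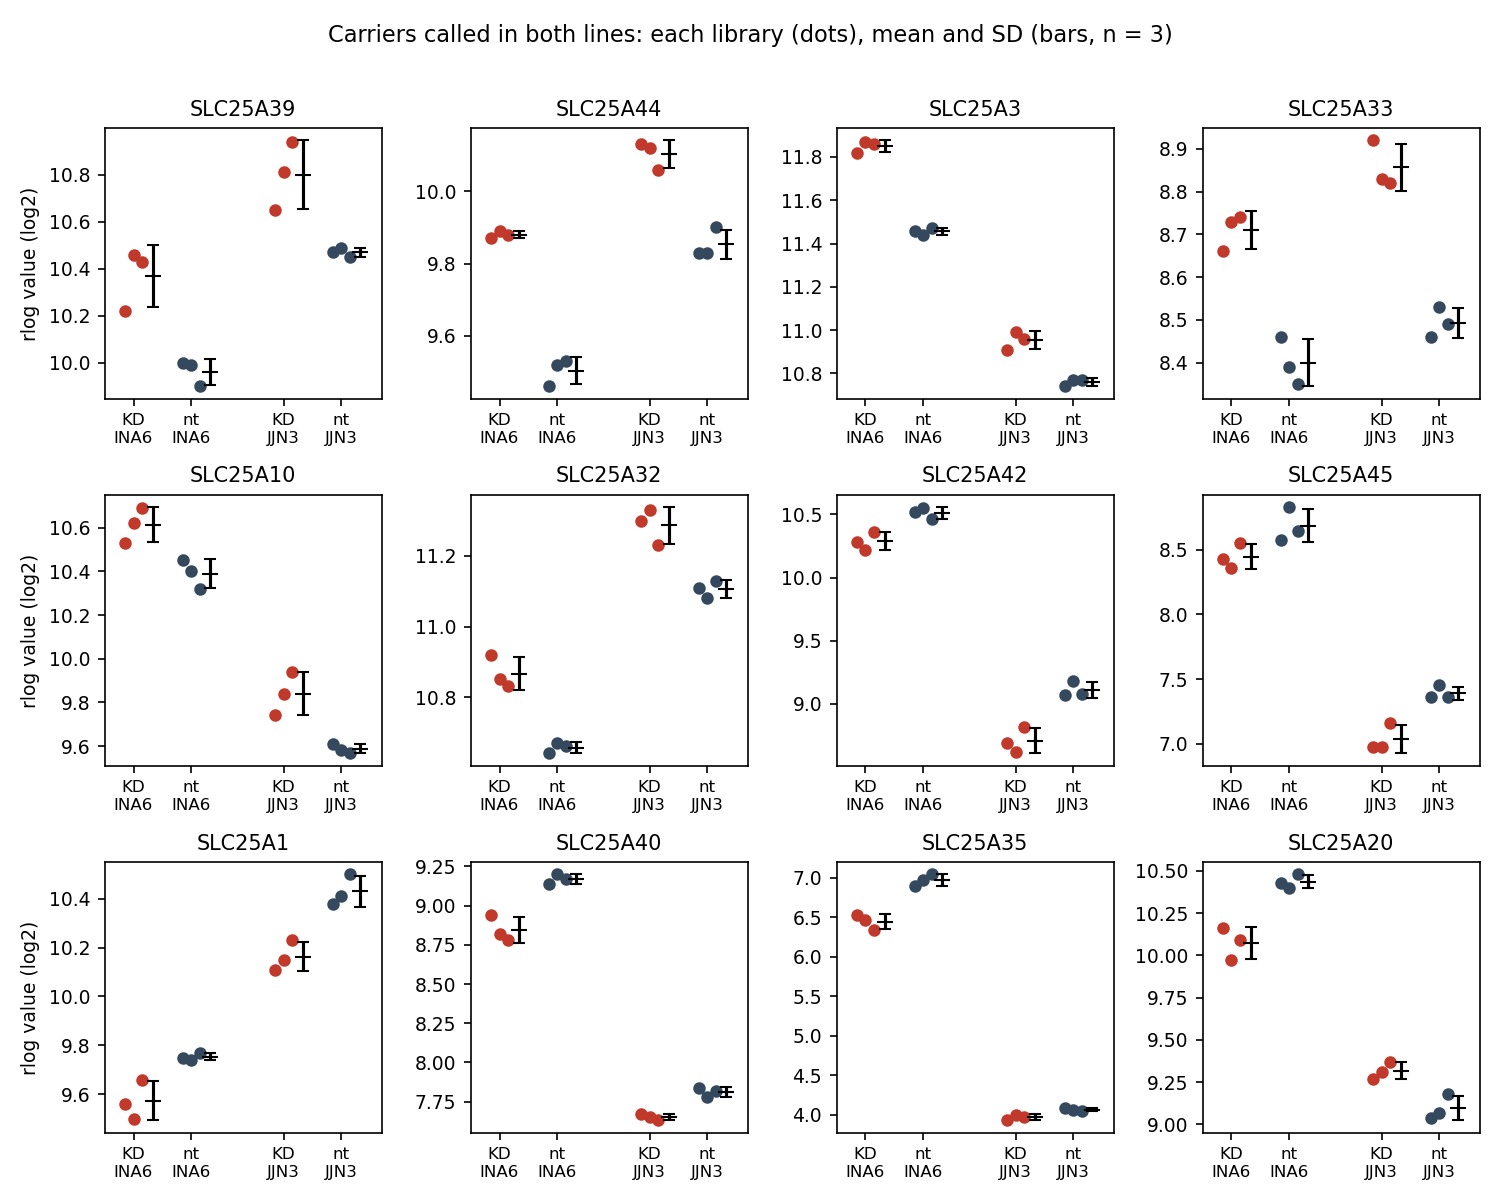
Each library's rlog value (log2) for the 12 carriers called in both lines, with mean and SD (bars, n = 3) beside the dots of each group; INA6 and JJN3 were normalised separately, so heights are comparable within a line only. In each panel the 3 knockdown and 3 non-targeting values of a line do not overlap.

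The carriers of adenine nucleotides and phosphate supply ATP synthase with its substrates and export its product. SLC25A3, the phosphate carrier (chromosome 12, 98593686 to 98606367 in the GRCh38.p14 annotation), rose in both lines and by more in INA6. SLC25A3 had rlog values of 11.82, 11.87 and 11.86 in INA6 knockdown libraries, against 11.46, 11.44 and 11.47 in INA6 non-targeting libraries. SLC25A3 had 10.91, 10.99 and 10.96 in JJN3 knockdown libraries, against 10.74, 10.77 and 10.77 in JJN3 non-targeting libraries. All knockdown values lay above all non-targeting values in each line. The difference was 0.39 (SE 0.0402, limma adjusted p = 1.03e-07) in INA6 and 0.19 (SE 0.0401, limma adjusted p = 0.000186) in JJN3, that is 131% and 114% of the non-targeting level. The difference between the 2 lines was 0.20 (SE 0.0568, limma-based adjusted p = 0.00533).

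The ADP/ATP carriers did not move as one. SLC25A5, the isoform of proliferating cells (chromosome X, 119468444 to 119471396), had rlog values of 12.94, 12.94 and 12.96 in INA6 knockdown libraries, against 12.81, 12.80 and 12.81 in INA6 non-targeting libraries. It rose there by 0.14 (SE 0.0379, limma adjusted p = 0.00531), a call that was lost with quantile normalisation (0.08, adjusted p = 0.0582). In JJN3 its values were 10.88, 10.85 and 10.92 in JJN3 knockdown libraries, against 10.88, 10.91 and 10.94 in JJN3 non-targeting libraries, and the groups overlapped (−0.03, adjusted p = 0.585). The difference between lines was 0.16 (adjusted p = 0.0196), and it missed the threshold without JJN3 knockdown replicate 2 (0.15, adjusted p = 0.0705) and without JJN3 non-targeting replicate 3 (0.15, adjusted p = 0.0567). SLC25A4, the isoform of heart and muscle (chromosome 4, 185143266 to 185150382), showed the reverse order of calls. SLC25A4 had rlog values of 9.45, 9.57 and 9.57 in INA6 knockdown libraries, against 9.46, 9.46 and 9.37 in INA6 non-targeting libraries. SLC25A4 had 7.77, 7.79 and 7.88 in JJN3 knockdown libraries, against 7.57, 7.62 and 7.54 in JJN3 non-targeting libraries. It rose by 0.23 in JJN3 (SE 0.0548, adjusted p = 0.000681) and was at 0.10 in INA6 (adjusted p = 0.117). For SLC25A4 the effects differed between lines by −0.14 (adjusted p = 0.173), which did not pass. Within a library the log2 ratio of SLC25A5 to SLC25A4 was 3.07 ± 0.0396 in JJN3 knockdown libraries and 3.33 ± 0.0628 in JJN3 non-targeting libraries (SD, n = 3 each), with no overlap, and 3.41 ± 0.0632 in INA6 knockdown libraries and 3.38 ± 0.0609 in INA6 non-targeting libraries (SD, n = 3 each), with overlap. These ratios are not corrected for transcript length and serve only to compare libraries. SLC25A5-AS1, a long noncoding gene on the opposite strand that overlaps SLC25A5 over 677 bases, was at 0.03 in INA6 and 0.05 in JJN3 (adjusted p = 0.728 and 0.396), and the sources used here do not say whether reads were counted by strand.

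SLC25A6, the third ADP/ATP carrier and a broadly expressed gene, was near the floor of the tables. It had rlog values of 0.23, 0.27 and 0.21 in INA6 knockdown libraries, against 0.22, 0.22 and 0.21 in INA6 non-targeting libraries, and of −0.95, −0.94 and −0.95 in JJN3 knockdown libraries, against −0.92, −0.95 and −0.95 in JJN3 non-targeting libraries. Whether such genes were counted was looked at after their values were seen. Its position (chromosome X, 1386152 to 1392113) is in the pseudoautosomal region, which chromosomes X and Y share. All 15 protein-coding genes from the tip of X to CD99 that the tables list were below the minimum mean of 3 in both lines, with a highest library value of 0.27 in INA6 and 2.99 in JJN3, and CD99 itself was listed at 0 throughout. These values do not show that SLC25A6 is not expressed, and the carrier total for ADP and ATP cannot be given. SLC25A31, the testis isoform, was at a mean of 0.71 in INA6 and listed at 0 in JJN3.

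The calcium-regulated ATP-Mg/phosphate carriers moved in different directions. SLC25A23 was at 9.90, 9.80 and 9.94 in JJN3 knockdown libraries, against 10.04, 10.04 and 10.19 in JJN3 non-targeting libraries, a difference of −0.21 (SE 0.0477, limma adjusted p = 0.000461), with no overlap. In INA6 its values were 9.27, 9.23 and 9.15 in INA6 knockdown libraries, against 9.20, 9.23 and 9.28 in INA6 non-targeting libraries and overlapped (−0.02, adjusted p = 0.809). Between lines the effect differed by 0.20 (adjusted p = 0.0283), a call lost when INA6 knockdown replicate 1 or 2, INA6 non-targeting replicate 1 or 2, JJN3 knockdown replicate 2 or JJN3 non-targeting replicate 3 was left out, with adjusted p from 0.0599 to 0.126. SLC25A24 had rlog values of 8.99, 8.87 and 8.89 in INA6 knockdown libraries, against 9.08, 9.11 and 9.10 in INA6 non-targeting libraries. SLC25A24 had 9.54, 9.59 and 9.43 in JJN3 knockdown libraries, against 9.64, 9.52 and 9.56 in JJN3 non-targeting libraries. SLC25A24 fell in INA6 (−0.18, adjusted p = 0.00731) and was at −0.05 in JJN3 (adjusted p = 0.372), and the difference between lines did not pass (−0.13, adjusted p = 0.178). SLC25A25 measured 9.06, 9.03 and 9.12 in INA6 knockdown libraries, against 8.92, 9.00 and 8.92 in INA6 non-targeting libraries. SLC25A25 measured 7.83, 7.87 and 7.91 in JJN3 knockdown libraries, against 7.68, 7.65 and 7.67 in JJN3 non-targeting libraries. SLC25A25 rose in JJN3 (0.20, adjusted p = 0.00182) and was at 0.12 in INA6 (adjusted p = 0.0503). The log2 ratio of SLC25A25 to SLC25A24 was 0.15 ± 0.0801 in INA6 knockdown libraries and −0.15 ± 0.0332 in INA6 non-targeting libraries, and −1.65 ± 0.105 in JJN3 knockdown libraries and −1.91 ± 0.0523 in JJN3 non-targeting libraries (SD, n = 3 each), without overlap in either line. SLC25A17, the peroxisomal member of the family, was at 0.04 in INA6 and 0.00 in JJN3 and was not called in either (adjusted p = 0.642 and 0.961).

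The 2 glutathione carriers moved apart in both lines. SLC25A39 imports glutathione into the matrix (chromosome 17, 44319628 to 44324823) and SLC25A40 is its close relative (chromosome 7, 87833568 to 87876360). SLC25A39 had rlog values of 10.22, 10.46 and 10.43 in INA6 knockdown libraries, against 10.00, 9.99 and 9.90 in INA6 non-targeting libraries. SLC25A39 had 10.65, 10.81 and 10.94 in JJN3 knockdown libraries, against 10.47, 10.49 and 10.45 in JJN3 non-targeting libraries. The rise was 0.41 (SE 0.056, limma adjusted p = 4.66e-06) in INA6 and 0.33 (SE 0.0506, limma adjusted p = 2.43e-06) in JJN3. The knockdown libraries spread more than the controls (SD 0.131 against 0.0518 in INA6 and 0.149 against 0.0195 in JJN3), with knockdown library 1 the lowest of its arm in each line, yet still above all controls. SLC25A40 measured 8.94, 8.82 and 8.78 in INA6 knockdown libraries, against 9.14, 9.20 and 9.17 in INA6 non-targeting libraries. SLC25A40 measured 7.67, 7.65 and 7.63 in JJN3 knockdown libraries, against 7.84, 7.78 and 7.82 in JJN3 non-targeting libraries. SLC25A40 fell by 0.32 in INA6 (SE 0.054, limma adjusted p = 4.66e-05) and by 0.16 in JJN3 (SE 0.053, adjusted p = 0.0104). Within a library, SLC25A39 minus SLC25A40 was 1.53 ± 0.211 in INA6 knockdown libraries and 0.79 ± 0.0601 in INA6 non-targeting libraries, and 3.15 ± 0.172 in JJN3 knockdown libraries and 2.65 ± 0.0439 in JJN3 non-targeting libraries (SD, n = 3 each). The ratio thus shifted by 0.73 and 0.50 on the log2 scale, with no overlap in either line, and the shift was the largest of the 7 pairs compared in INA6 and the second largest in JJN3, after the pyrimidine pair. Of the 7 pairs, 4 shifted without overlap in both lines, including SLC25A25 with SLC25A24, a pair chosen after the values were seen. The gap was narrow for SLC25A28 with SLC25A37 in INA6 (lowest knockdown ratio −1.81, highest non-targeting ratio −1.83). No such share was computed for other gene pairs, while 55.2% of single tested genes in INA6 and 56.1% in JJN3 did not overlap. Neither SLC25A39 nor SLC25A40 passed the test of a difference between lines (0.08, adjusted p = 0.479, and −0.16, adjusted p = 0.106).

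**Figure D3:**
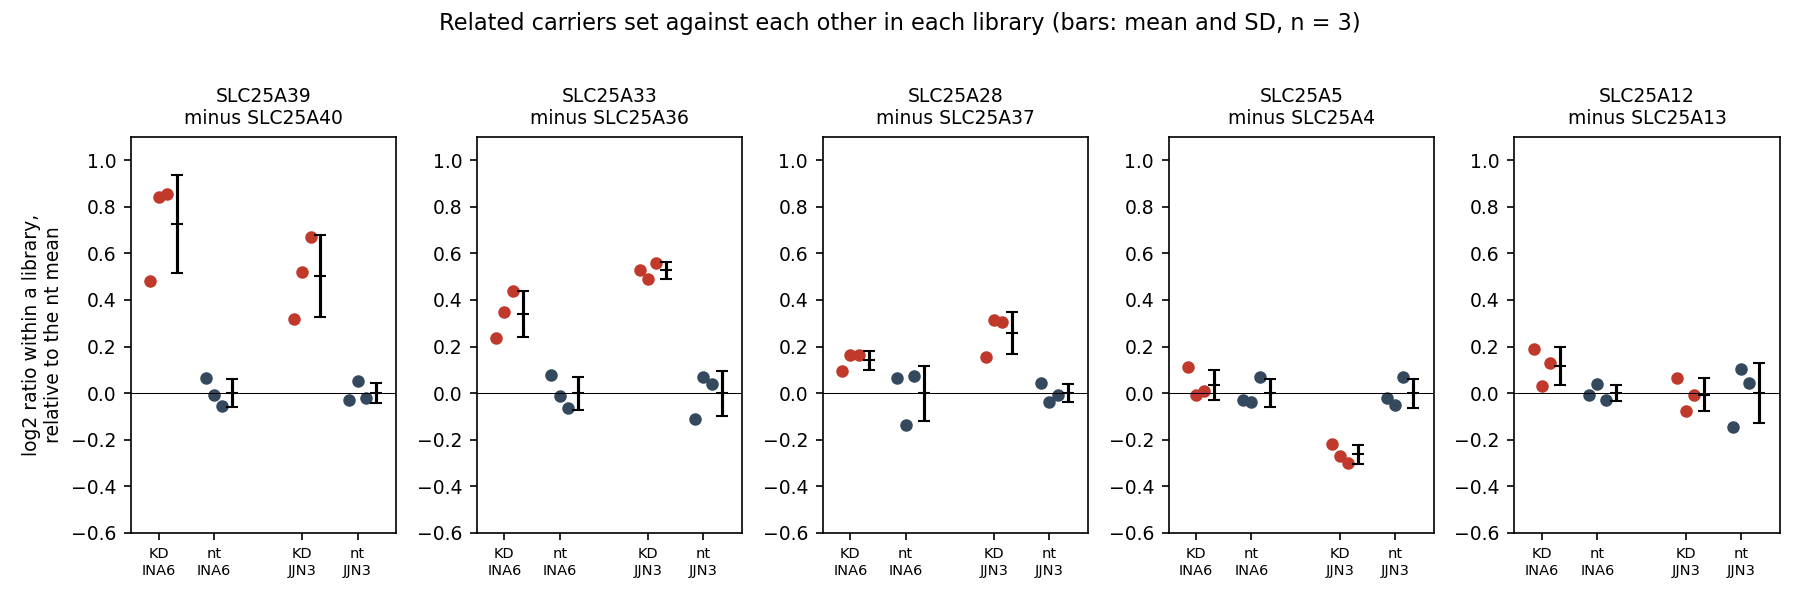
Log2 ratio of related carriers within each library (dots), relative to the mean ratio of the non-targeting libraries of the line, with mean and SD (bars, n = 3). SLC25A39 against SLC25A40, SLC25A33 against SLC25A36 and SLC25A28 against SLC25A37 lie above their controls in both lines, SLC25A5 against SLC25A4 lies below in JJN3 only, and SLC25A12 against SLC25A13 overlaps in both.

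The pyrimidine nucleotide carriers SLC25A33 and SLC25A36 bring the nucleotides needed for mitochondrial DNA and RNA into the matrix, and the balance between them shifted in both lines. SLC25A33 had rlog values of 8.66, 8.73 and 8.74 in INA6 knockdown libraries, against 8.46, 8.39 and 8.35 in INA6 non-targeting libraries. SLC25A33 had 8.92, 8.83 and 8.82 in JJN3 knockdown libraries, against 8.46, 8.53 and 8.49 in JJN3 non-targeting libraries. The rise was 0.31 (SE 0.0546, limma adjusted p = 8.21e-05) in INA6 and 0.37 (SE 0.0491, limma adjusted p = 3.48e-07) in JJN3, that is 124% and 129% of the non-targeting level. SLC25A36 measured 11.14, 11.09 and 11.01 in INA6 knockdown libraries, against 11.09, 11.11 and 11.12 in INA6 non-targeting libraries. SLC25A36 measured 10.65, 10.60 and 10.52 in JJN3 knockdown libraries, against 10.82, 10.72 and 10.71 in JJN3 non-targeting libraries. SLC25A36 fell by 0.16 in JJN3 (SE 0.044, adjusted p = 0.00345), and in INA6, where the groups overlapped, it was at −0.03 (adjusted p = 0.594). The log2 ratio of SLC25A33 to SLC25A36 was −1.73 ± 0.0323 in JJN3 knockdown libraries and −2.26 ± 0.0949 in JJN3 non-targeting libraries, and −2.37 ± 0.102 in INA6 knockdown libraries and −2.71 ± 0.0695 in INA6 non-targeting libraries (SD, n = 3 each), without overlap in either line.

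The 2 pyrimidine carriers are shown with their promoters because both windows hold the same 3 of 8 searched motifs although the genes did not change alike. The windows reach from 250 bases before to 50 bases after the RefSeq start, on the plus strand of GRCh38.p14 (chr1:9539215-9539514 and chr3:140941586-140941885). SLC25A25 (chr9:128098257-128098556, plus strand, at a start inside the gene's annotated span) is added as the remaining carrier with the cyclic AMP response element, and SLC25A20 (chr3:48898833-48899132, minus strand) as the carrier called in opposite directions in the 2 lines. Sequences run 5′ to 3′ and capitals mark motif matches on either strand.
SLC25A33: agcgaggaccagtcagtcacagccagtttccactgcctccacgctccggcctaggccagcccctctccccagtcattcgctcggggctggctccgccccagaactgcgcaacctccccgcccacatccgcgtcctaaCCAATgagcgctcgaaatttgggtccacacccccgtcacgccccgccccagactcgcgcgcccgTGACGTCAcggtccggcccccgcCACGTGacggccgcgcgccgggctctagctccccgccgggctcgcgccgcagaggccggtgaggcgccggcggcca
SLC25A36: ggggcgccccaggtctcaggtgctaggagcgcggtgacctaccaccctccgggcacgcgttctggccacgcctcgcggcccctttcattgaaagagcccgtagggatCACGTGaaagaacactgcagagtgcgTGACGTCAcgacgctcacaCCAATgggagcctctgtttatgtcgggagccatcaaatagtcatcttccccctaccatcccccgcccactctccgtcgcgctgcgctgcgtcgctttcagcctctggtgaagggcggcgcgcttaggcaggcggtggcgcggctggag
SLC25A25: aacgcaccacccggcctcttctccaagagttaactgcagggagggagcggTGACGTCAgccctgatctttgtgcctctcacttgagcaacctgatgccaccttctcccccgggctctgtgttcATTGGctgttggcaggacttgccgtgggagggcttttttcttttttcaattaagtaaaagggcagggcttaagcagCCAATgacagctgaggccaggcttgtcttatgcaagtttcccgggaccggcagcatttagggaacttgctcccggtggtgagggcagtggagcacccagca
SLC25A20: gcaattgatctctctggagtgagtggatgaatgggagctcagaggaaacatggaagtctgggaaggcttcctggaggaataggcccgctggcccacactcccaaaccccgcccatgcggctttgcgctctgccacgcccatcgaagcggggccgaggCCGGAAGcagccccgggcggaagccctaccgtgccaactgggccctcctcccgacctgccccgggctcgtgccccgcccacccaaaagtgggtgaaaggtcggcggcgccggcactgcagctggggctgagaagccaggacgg
Promoter windows matched 40 of the 48 carriers by symbol. The cyclic AMP response element TGACGTCA was in 3 of them (7.5%, against 1.98% of 27305 promoter windows), SLC25A25, SLC25A33 and SLC25A36. The E-box CACGTG, the site of MYC and its relatives, was in 7 (17.5%, against 7.43% of all windows), SLC25A13, SLC25A31, SLC25A33, SLC25A36, SLC25A38, SLC25A46 and SLC25A51. Of these, SLC25A33 rose in both lines, SLC25A36 fell in JJN3 and SLC25A38 rose in INA6, SLC25A31 was not tested, and the other 3 were not called in either line. The CCAAT box was in 19 (47.5%, against 35.7%), the ETS core CCGGAAG in 8 (20%, against 10.7%), SLC25A20 included, and the YY1 core AAGATGGCG in SLC25A3 alone (2.5%, against 1.85%). None of the 40 windows held the NRF1 core (1.36% of all windows), the oestrogen-related receptor site TCAAGGTCA (0.359%) or the ATF4 composite TGATGNAAT (1.02%). No match overlapped another in the 4 windows shown, and a match or its lack in this window is a description of letters only.

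The dicarboxylate and citrate carriers, which feed cytosolic fatty acid synthesis and the tricarboxylic acid cycle, changed in opposite directions in each line. SLC25A10, the dicarboxylate carrier (chromosome 17, 81712284 to 81721012), rose. SLC25A10 had rlog values of 10.53, 10.62 and 10.69 in INA6 knockdown libraries, against 10.45, 10.40 and 10.32 in INA6 non-targeting libraries. SLC25A10 had 9.74, 9.84 and 9.94 in JJN3 knockdown libraries, against 9.61, 9.58 and 9.57 in JJN3 non-targeting libraries. The difference was 0.22 (SE 0.0498, limma adjusted p = 0.000934) in INA6 and 0.26 (SE 0.0475, limma adjusted p = 4.08e-05) in JJN3. SLC25A1, the citrate carrier (chromosome 22, 19175581 to 19178736), fell. SLC25A1 measured 9.56, 9.50 and 9.66 in INA6 knockdown libraries, against 9.75, 9.74 and 9.77 in INA6 non-targeting libraries. SLC25A1 measured 10.11, 10.15 and 10.23 in JJN3 knockdown libraries, against 10.38, 10.41 and 10.50 in JJN3 non-targeting libraries. The difference was −0.18 (SE 0.0503, limma adjusted p = 0.00475) in INA6 and −0.27 (SE 0.0448, limma adjusted p = 8.98e-06) in JJN3, with no overlap in either line. Their differences between lines were −0.04 (adjusted p = 0.736) and 0.09 (adjusted p = 0.341). Of the other 8 genes of citrate and pyruvate metabolism on the list, 3 rose and 2 fell in INA6 and 3 rose and 1 fell in JJN3. Among all tested genes, 48.6% were called in INA6 and 51.0% in JJN3. The ATP-citrate lyase ACLY (0.16 and 0.12) rose and the dehydrogenase IDH2 (−0.24 and −0.13) fell in both lines, while the citrate synthase CS rose in INA6 (0.29, adjusted p = 4.73e-06) and was at −0.03 in JJN3 (adjusted p = 0.602), and the pyruvate carboxylase PC rose in JJN3 (0.22).

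SLC25A20, the carnitine-acylcarnitine translocase through which long-chain fatty acids reach the matrix (chromosome 3, 48856926 to 48898882), was the carrier called in opposite directions. SLC25A20 had rlog values of 10.16, 9.97 and 10.09 in INA6 knockdown libraries, against 10.43, 10.40 and 10.48 in INA6 non-targeting libraries. SLC25A20 had 9.27, 9.31 and 9.37 in JJN3 knockdown libraries, against 9.04, 9.07 and 9.18 in JJN3 non-targeting libraries. In INA6 all knockdown values lay below the controls, and in JJN3 all lay above. The difference was −0.37 (SE 0.0504, limma adjusted p = 5.03e-06) in INA6, 77.6% of the control level, and 0.22 (SE 0.0483, limma adjusted p = 0.000323) in JJN3, 117% of the control level. The difference between lines was −0.59 (SE 0.0698, limma-based adjusted p = 1.95e-09), the largest of any carrier, and it stayed between −0.63 and −0.54 under all 16 alternatives. Over all genes, 30.0% of those tested in both lines differed between lines at this threshold, and 8 of the 37 carriers did. Of the 3 tested enzymes of the same shuttle, 1 rose and 2 fell in each line, where 48.6% (INA6) and 51.0% (JJN3) of all genes were called. CPT1A, which makes acylcarnitines at the outer membrane, rose (0.17 and 0.33), and CPT2 (−0.24 and −0.12) and the carnitine acetyltransferase CRAT (−0.40 and −0.27) fell.

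**Figure D4:**
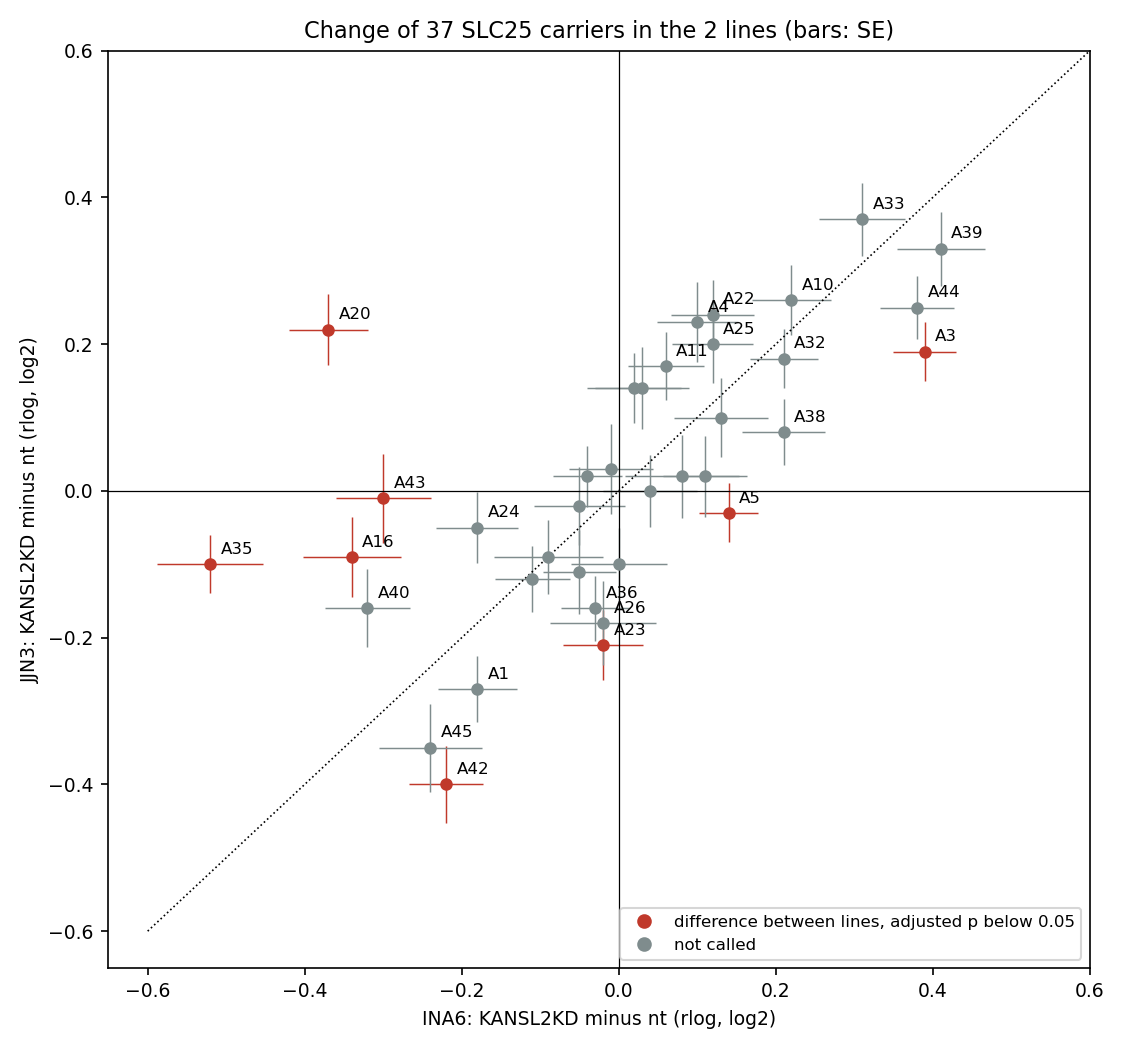
Knockdown minus non-targeting in INA6 (x) and JJN3 (y), rlog on the log2 scale, for the 37 carriers tested in both lines, with SE bars and the dotted line of equal change; SLC25 is left off the labels. The 8 red carriers differed between lines, and SLC25A20 stands alone in the upper left.

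Coenzyme A, folate and NAD carriers supply the matrix with cofactors. SLC25A42, which imports coenzyme A (chromosome 19, 19063994 to 19113030), fell in both lines. SLC25A42 had rlog values of 10.28, 10.22 and 10.36 in INA6 knockdown libraries, against 10.52, 10.55 and 10.46 in INA6 non-targeting libraries. SLC25A42 had 8.69, 8.62 and 8.82 in JJN3 knockdown libraries, against 9.07, 9.18 and 9.08 in JJN3 non-targeting libraries. The difference was −0.22 (SE 0.0475, limma adjusted p = 0.000551) in INA6 and −0.40 (SE 0.0521, limma adjusted p = 1.87e-07) in JJN3. The difference between lines of 0.18 only just passed (adjusted p = 0.0488) and was lost under 11 of 16 alternatives, with adjusted p from 0.052 to 0.189. These were quantile normalisation, the replicate block (0.18, adjusted p = 0.0868), a joint fit, and leaving out INA6 knockdown replicate 3, any INA6 non-targeting replicate, JJN3 knockdown replicate 1 or 2 or JJN3 non-targeting replicate 2 or 3. SLC25A16, also linked to coenzyme A transport, had rlog values of 7.96, 7.85 and 7.73 in INA6 knockdown libraries, against 8.21, 8.21 and 8.14 in INA6 non-targeting libraries, a difference of −0.34 (SE 0.0627, adjusted p = 0.000159). It had 7.45, 7.46 and 7.46 in JJN3 knockdown libraries, against 7.60, 7.48 and 7.55 in JJN3 non-targeting libraries, where the groups also did not overlap but the difference was −0.09 (adjusted p = 0.182). INA6 minus JJN3 was −0.25 (adjusted p = 0.0197), a call lost when INA6 knockdown replicate 3, INA6 non-targeting replicate 1 or 2 or JJN3 non-targeting replicate 2 was left out (adjusted p from 0.0514 to 0.0784). The log2 ratio of SLC25A16 to SLC25A42 was −2.44 ± 0.162 in INA6 knockdown libraries and −2.33 ± 0.0154 in INA6 non-targeting libraries, with overlap, and −1.25 ± 0.101 in JJN3 knockdown libraries and −1.57 ± 0.119 in JJN3 non-targeting libraries, without overlap (SD, n = 3 each). Of 8 genes of coenzyme A, NAD and thiamine metabolism, 2 rose and 1 fell in INA6 and 2 rose and 2 fell in JJN3. The share called among all tested genes was 48.6% in INA6 and 51.0% in JJN3. In coenzyme A synthesis, PANK2 rose in both lines (0.18 and 0.34), and COASY rose in INA6 (0.30) and was at 0.01 in JJN3 (adjusted p = 0.929). The other genes of coenzyme A synthesis on the list were not called higher in either line.

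SLC25A32, the folate carrier (chromosome 8, 103398638 to 103415107), rose in both lines. SLC25A32 measured 10.92, 10.85 and 10.83 in INA6 knockdown libraries, against 10.64, 10.67 and 10.66 in INA6 non-targeting libraries. SLC25A32 measured 11.30, 11.33 and 11.23 in JJN3 knockdown libraries, against 11.11, 11.08 and 11.13 in JJN3 non-targeting libraries. The rise was 0.21 (SE 0.0433, limma adjusted p = 0.000425) in INA6 and 0.18 (SE 0.0403, limma adjusted p = 0.00041) in JJN3. With quantile normalisation the JJN3 call was lost (0.07, adjusted p = 0.155). Of 8 enzymes of one-carbon metabolism, 5 rose and 1 fell in INA6 (median 0.14) and 5 rose and 0 fell in JJN3 (median 0.15). All tested genes had a median of 0.00, and 48.6% of them were called in INA6 and 51.0% in JJN3. MTHFD1 (0.27 and 0.21) rose in both, as did the matrix enzyme MTHFD2 (0.14 and 0.16). ALDH1L2 fell in INA6 (−0.33) and was at 0.03 in JJN3 (adjusted p = 0.61). SLC25A51, the NAD carrier, was at 0.13 and 0.10 and was not called (adjusted p = 0.0669 and 0.134), though its groups did not overlap in either line.

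Of the carriers of the malate-aspartate shuttle and of glutamate, 0 of 5 tested were called in INA6, where 48.6% of all genes were, and 2 of 4 rose in JJN3, where 51.0% of all genes were called. These were the oxoglutarate carrier SLC25A11 (0.17, adjusted p = 0.00374) and the glutamate carrier SLC25A22 (0.24, adjusted p = 0.000102). Neither passed the test of a difference between lines (−0.11, adjusted p = 0.223, and −0.12, adjusted p = 0.217). The aspartate-glutamate carriers were not called. SLC25A12 had rlog values of 9.23, 9.12 and 9.09 in INA6 knockdown libraries, against 8.98, 9.08 and 9.05 in INA6 non-targeting libraries. SLC25A12 had 7.52, 7.44 and 7.43 in JJN3 knockdown libraries, against 7.45, 7.48 and 7.41 in JJN3 non-targeting libraries. SLC25A13 measured 8.89, 8.95 and 8.83 in INA6 knockdown libraries, against 8.85, 8.91 and 8.94 in INA6 non-targeting libraries. SLC25A13 measured 6.57, 6.62 and 6.56 in JJN3 knockdown libraries, against 6.70, 6.49 and 6.47 in JJN3 non-targeting libraries. Their differences were 0.11 and 0.02 for SLC25A12 (adjusted p = 0.103 and 0.81) and −0.01 and 0.03 for SLC25A13 (adjusted p = 0.903 and 0.732). With median centring SLC25A12 was called in INA6 (0.14, adjusted p = 0.029). Of the 4 enzymes of the shuttle, the mitochondrial GOT2 (0.24) and MDH2 (0.21) rose in INA6, and none was called in JJN3, where their differences lay between −0.04 and 0.06.

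Among carriers of amino acids, SLC25A44, which imports branched-chain amino acids (chromosome 1, 156194104 to 156212796), rose in both lines. SLC25A44 had rlog values of 9.87, 9.89 and 9.88 in INA6 knockdown libraries, against 9.46, 9.52 and 9.53 in INA6 non-targeting libraries. SLC25A44 had 10.13, 10.12 and 10.06 in JJN3 knockdown libraries, against 9.83, 9.83 and 9.90 in JJN3 non-targeting libraries. The rise was 0.38 (SE 0.0466, limma adjusted p = 1.4e-06) in INA6 and 0.25 (SE 0.043, limma adjusted p = 1.64e-05) in JJN3. SLC25A38, which imports glycine for heme synthesis, rose in INA6 (0.21, adjusted p = 0.00247) and was at 0.08 in JJN3 (adjusted p = 0.135), a difference between lines that did not pass (0.13, adjusted p = 0.154). SLC25A26, the S-adenosylmethionine carrier, fell in JJN3 (−0.18, adjusted p = 0.0106). This call was lost without knockdown replicate 2 (−0.16, adjusted p = 0.0504) and under quantile normalisation (−0.10, adjusted p = 0.138). The ornithine carrier SLC25A15 (−0.05 and −0.02) and SLC25A29 (adjusted p = 0.99 and 0.0932), which lies in part over YY1 on the other strand, were not called.

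The mitoferrins SLC25A28 and SLC25A37 import iron for heme and iron-sulphur clusters. SLC25A28 had rlog values of 8.29, 8.38 and 8.46 in INA6 knockdown libraries, against 8.40, 8.27 and 8.39 in INA6 non-targeting libraries. SLC25A28 had 8.98, 9.02 and 9.05 in JJN3 knockdown libraries, against 8.95, 8.85 and 8.85 in JJN3 non-targeting libraries. SLC25A37 measured 10.10, 10.12 and 10.21 in INA6 knockdown libraries, against 10.24, 10.31 and 10.21 in INA6 non-targeting libraries. SLC25A37 measured 9.46, 9.34 and 9.38 in JJN3 knockdown libraries, against 9.53, 9.51 and 9.50 in JJN3 non-targeting libraries. The log2 ratio of SLC25A28 to SLC25A37 was −1.76 ± 0.0384 in INA6 knockdown libraries and −1.90 ± 0.117 in INA6 non-targeting libraries, and −0.38 ± 0.0874 in JJN3 knockdown libraries and −0.63 ± 0.0392 in JJN3 non-targeting libraries (SD, n = 3 each), without overlap in either line. In JJN3 SLC25A28 was called higher (0.14, adjusted p = 0.0187) and SLC25A37 lower (−0.12, adjusted p = 0.0301). Both calls were fragile: that of SLC25A28 was lost without any 1 of 4 libraries (knockdown replicate 2 or 3, non-targeting replicate 2 or 3, adjusted p from 0.0515 to 0.0877), and that of SLC25A37 under 6 of 12 alternatives (median centring, no filter, and without knockdown replicate 2 or 3 or non-targeting replicate 1 or 2), with adjusted p from 0.0516 to 0.169. In INA6 they were at 0.02 (adjusted p = 0.762) and −0.11 (adjusted p = 0.0535). Of 10 genes of heme and iron-sulphur metabolism, 3 rose and 0 fell in INA6 and 2 rose and 4 fell in JJN3. For comparison, 48.6% of all tested genes were called in INA6 and 51.0% in JJN3. The iron-sulphur scaffold gene ISCU (0.22 and 0.29) rose in both lines, and the cysteine desulphurase NFS1 fell in JJN3 (−0.41) and was at −0.07 in INA6 (adjusted p = 0.336).

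Of the carriers with another or an uncertain substrate, 1 of 6 tested rose and 3 fell in INA6, and 2 of 5 tested fell in JJN3. Over all tested genes, 24.7% rose and 24.0% fell in INA6, and 25.5% rose and 25.5% fell in JJN3. SLC25A35 (chromosome 17, 8287763 to 8295400) had the lowest difference of any carrier in INA6. SLC25A35 had rlog values of 6.53, 6.46 and 6.34 in INA6 knockdown libraries, against 6.89, 6.97 and 7.04 in INA6 non-targeting libraries. SLC25A35 had 3.93, 4.00 and 3.98 in JJN3 knockdown libraries, against 4.09, 4.06 and 4.05 in JJN3 non-targeting libraries. The difference was −0.52 (SE 0.0675, limma adjusted p = 2.19e-06) in INA6. In JJN3 it was −0.10 (SE 0.0395, limma adjusted p = 0.0446), a call lost under all 11 alternatives that gave a value, with adjusted p from 0.0512 to 0.189. INA6 minus JJN3 was −0.43 (adjusted p = 2.23e-05). The mean of SLC25A35 over the 6 libraries was 6.70 in INA6 but 4.02 in JJN3. The JJN3 mean is near the minimum of 3, where the rlog transformation understates changes. The part of this in the difference between lines was not tested. SLC25A43 had rlog values of 7.52, 7.63 and 7.60 in INA6 knockdown libraries, against 7.83, 7.87 and 7.95 in INA6 non-targeting libraries, and of 7.41, 7.49 and 7.25 in JJN3 knockdown libraries, against 7.39, 7.36 and 7.44 in JJN3 non-targeting libraries. It fell in INA6 (−0.30, adjusted p = 0.00036), was at −0.01 in JJN3 (adjusted p = 0.885) and differed between lines by −0.29 (adjusted p = 0.00826).

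SLC25A45 (chromosome 11, 65375192 to 65383701) fell in both lines. SLC25A45 measured 8.43, 8.36 and 8.55 in INA6 knockdown libraries, against 8.58, 8.83 and 8.65 in INA6 non-targeting libraries. SLC25A45 measured 6.97, 6.97 and 7.16 in JJN3 knockdown libraries, against 7.36, 7.45 and 7.36 in JJN3 non-targeting libraries. The difference was −0.24 (SE 0.0656, limma adjusted p = 0.0044) in INA6, lost without non-targeting replicate 2 (−0.17, adjusted p = 0.0557), and −0.35 (SE 0.06, limma adjusted p = 1.3e-05) in JJN3. Its 8510 bases lie within the annotated span of FRMD8 on the opposite strand, whose own difference was 0.09 in INA6 (adjusted p = 0.132) and 0.23 in JJN3 (adjusted p = 0.00015). The exons of the 2 genes were not compared, so how many reads they could share is not known. SLC25A34 was called higher in INA6 (0.19, adjusted p = 0.0118), lost without knockdown replicate 1 or 2 or non-targeting replicate 3 (adjusted p from 0.0514 to 0.0549), and was below the minimum in JJN3. SLC25A46 of the outer membrane (−0.04 and 0.02) and SLC25A53 (−0.05 and −0.11) were not called, nor were the uncoupling-protein relatives SLC25A14 (−0.09 in each line) and SLC25A30 (0.08 and 0.02).

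The carriers below the minimum were SLC25A2, SLC25A6, SLC25A21, SLC25A27, SLC25A31, SLC25A41, SLC25A47, SLC25A48 and SLC25A52 in both lines and SLC25A18 and SLC25A34 in JJN3. SLC25A21 was listed at 0 in all 12 libraries. The highest mean among them was 2.78, of the glutamate carrier SLC25A18 in JJN3, which in INA6 was tested and at 0.03 (adjusted p = 0.502). None of these low values says that a transcript is absent.

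The carriers that bear other symbols and the other transporters of the mitochondrial membranes were read in the same fits. UCP2, a member of the SLC25 family that exports metabolites of 4 carbons, fell in both lines, by 0.34 in INA6 (SE 0.0513, limma adjusted p = 1.44e-05) and by 0.42 in JJN3 (SE 0.0525, adjusted p = 8.87e-08). The outer-membrane relatives MTCH1 and MTCH2 were not called in either line. Of 13 other membrane transporters tested in INA6, 8 rose and 1 fell (median 0.19), and of 14 in JJN3 6 rose and 3 fell (median 0.06). Calls over all tested genes reached 48.6% in INA6 and 51.0% in JJN3. The cyclophilin PPIF, which regulates the permeability transition pore (0.41 and 0.32), and the cation exchanger LETM1 (0.31 and 0.29) rose in both lines. The outer membrane protein TSPO was called lower in INA6 (−0.65, limma adjusted p = 9.93e-08). It was also called lower in JJN3 (−0.13, limma adjusted p = 0.0429), though its groups overlapped there. SFXN3, a sideroflexin, fell by 0.60 in JJN3 and was below the minimum in INA6, and SFXN2 rose in JJN3 (0.37).

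Of 6 core subunits of ATP synthase, 4 rose in INA6 (median 0.25) and 2 in JJN3 (median 0.04). Across all tested genes, 24.7% rose and 24.0% fell in INA6, and 25.5% rose and 25.5% fell in JJN3. ATP5F1B was at 0.35 and 0.15 and ATP5F1A at 0.34 and 0.15. The 4 subunits not called in JJN3 lay between −0.02 and 0.06. The glutathione list holds 7 genes, of which AFG3L2 is a protease and not an enzyme of glutathione. Of these 7, 6 rose and 0 fell in INA6 (median 0.29) and 2 rose and 2 fell in JJN3 (median 0.05). In JJN3 the genes that rose were GPX1 and AFG3L2. GCLC, the catalytic subunit of the enzyme that limits glutathione synthesis, rose in INA6 (0.51, adjusted p = 9.03e-07) and was at 0.06 in JJN3 (adjusted p = 0.326). GPX1, a glutathione peroxidase (0.32 and 0.23), and AFG3L2, the matrix protease known to degrade the SLC25A39 protein (0.29 and 0.20), rose in both. GSS, which completes glutathione synthesis, fell in JJN3 (−0.27, adjusted p = 5.39e-05) and was at −0.12 in INA6 (adjusted p = 0.0728). Of the enzymes of ornithine, proline and glutamate, 1 of 6 rose and 2 fell in INA6 and 3 of 7 rose in JJN3, with the ornithine aminotransferase OAT at 0.33 in JJN3 and −0.01 in INA6 (adjusted p = 0.886). The test of a difference between lines was run on every gene tested in both, but its results for these partner genes are not reported here. A call in 1 line only therefore does not show that the effect on a partner gene differed between lines.

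**Figure D5:**
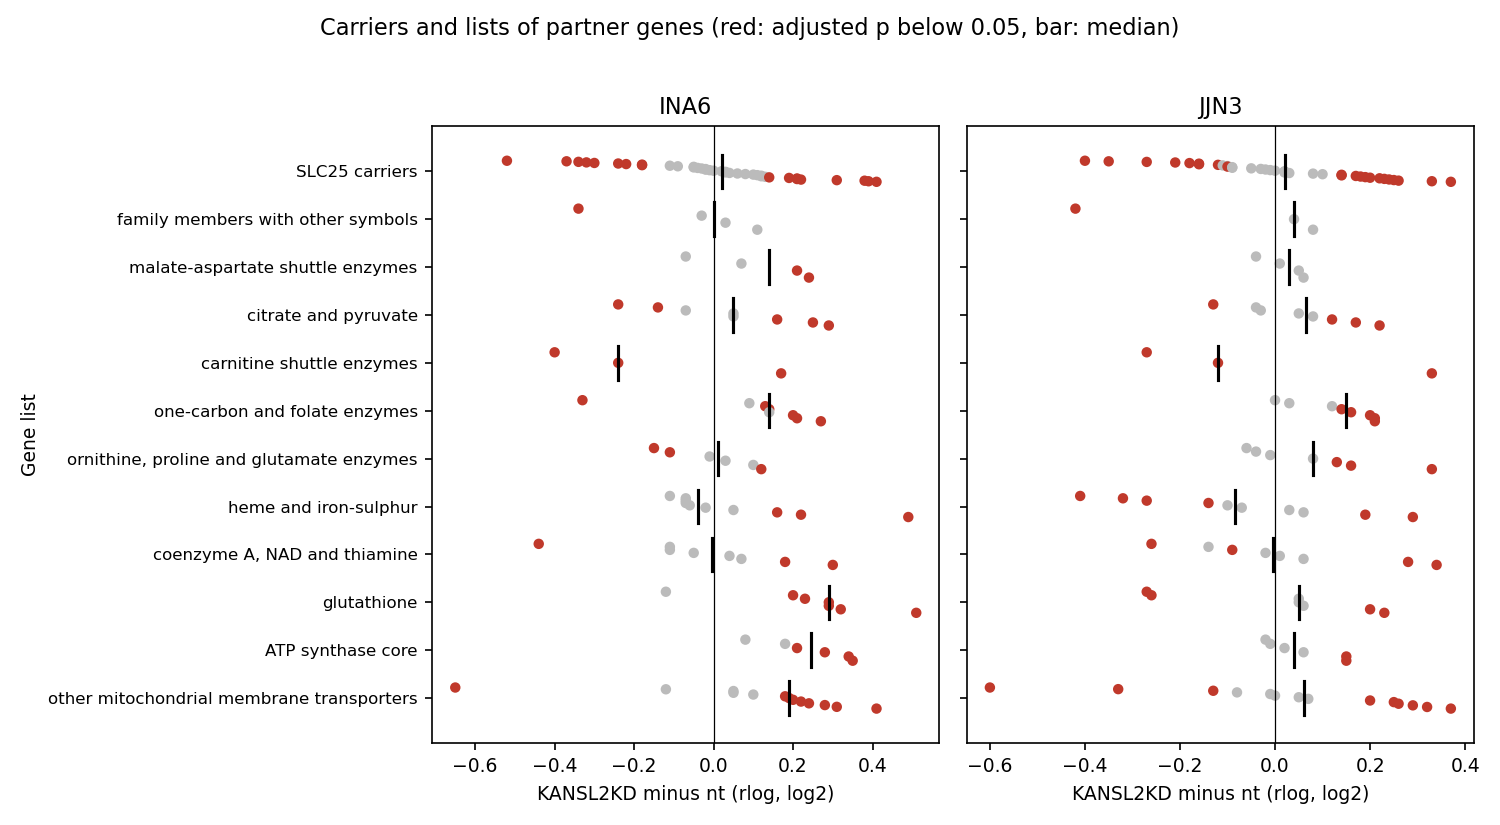
Knockdown minus non-targeting (rlog, log2) of the tested carriers and of each partner list in INA6 (left) and JJN3 (right), 1 dot per gene, red where called, with the list's median as a bar. The carriers spread to both sides of 0 with a median of 0.02 in each line, while the glutathione and ATP synthase lists lie mostly above 0 in INA6.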

How the data were processed

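RNA libraries of 2 myeloma lines were grouped by their titles, 3 KANSL2 knockdown and 3 non-targeting libraries per line. According to the labels' protocols, RNA bound to poly(A) beads was copied with random hexamers, and the tools that the submitters' processing notes name are Bowtie2, DESeq2, HTSeq and Trim Galore, on build hg38; versions, settings and strand handling are not given in the sources used here. The authors deposited 1 table of rlog values (log2 scale) per line. They hold no counts, so no count model or counting interval was used. Another 4 JJN3 chromatin accessibility libraries were not analysed here.

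limma 3.58.1 (R 4.3.3; lmFit, eBayes with a mean-variance trend) was fitted per line on all genes with a mean of at least 3, tested on simulated data, with Benjamini-Hochberg adjustment and calls below 0.05. The difference between lines was the difference of the 2 effects over the root of their summed squared SEs, with summed degrees of freedom, adjusted over 11137 genes. All tests are two-sided. An exact permutation test of 3 against 3 cannot go below 0.1 and was not used. The members and lists were chosen with earlier results of these data known, and the motifs, the promoters shown, the pairs SLC25A16 with SLC25A42 and SLC25A25 with SLC25A24, and the checks of overlapping and pseudoautosomal genes were chosen after the values were seen; promoters of SLC25A39 and SLC25A40 held none of the motifs and are not shown. Library values are given for carriers called in both lines, those that differ between lines and paralog pairs, and from each partner list up to 3 genes with the smallest p in either line are named. Values of 1 tested carrier and of some partner genes are not reported here, though they enter the fits and counts. Coordinates and promoters are RefSeq's for GRCh38.p14. Alternatives were median centring, quantile normalisation, other filters, no trend, a replicate block, an adjusted p below 0.01, a joint fit and leaving out each library.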

Additional observations from a re-analysis of the deposited data

Results flagged for a closer look

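The knockdown effect on 8 carriers differed between the 2 lines by a test of the difference itself (INA6 minus JJN3, limma-based adjusted p below 0.05), where 30.0% of 11137 genes did. The differences were −0.59 for SLC25A20, −0.43 for SLC25A35, −0.29 for SLC25A43, −0.25 for SLC25A16, 0.20 for SLC25A3, 0.20 for SLC25A23, 0.18 for SLC25A42 and 0.16 for SLC25A5. SLC25A20 is the carrier with called effects of opposite sign (−0.37 in INA6 and 0.22 in JJN3). For SLC25A3, SLC25A35 and SLC25A42 both lines were called in the same direction, but the JJN3 call of SLC25A35 (−0.10, adjusted p = 0.0446) was lost under all 11 alternatives and the between-line call of SLC25A42 under 11 of 16. For the other 4 the effect passed in 1 line only, and the between-line call was lost under 6 of 16 alternatives for SLC25A23, 4 for SLC25A16 and 2 for SLC25A5. KANSL2 itself was at −0.39 in INA6 and −1.21 in JJN3, so the depth of the knockdown differs between the lines as well, and its part in these differences was not tested. SLC25A35 had a mean of 4.02 in JJN3, near the minimum of 3, where the rlog transformation understates changes. The part of this in its difference between lines was not tested either.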

How the results depend on the processing

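In INA6 9 carriers were called higher, and 14 with median centring; the lower count stayed at 8 to 11 under every alternative tried. In JJN3 9 were called lower, and 5 at an adjusted p below 0.01. Leaving out each library in turn gave 8 to 11 higher and 8 to 10 lower in INA6, 11 to 13 higher and 6 to 9 lower in JJN3, and 5 to 9 carriers that differ between lines, against 8 with all libraries; 5 remained without INA6 non-targeting replicate 1 or 2, JJN3 knockdown replicate 2 or JJN3 non-targeting replicate 3. With the replicate number as a block 9 rose and 9 fell in INA6, 13 rose and 8 fell in JJN3, and 7 differed between lines. Same-numbered libraries did not deviate together (correlations −0.179, −0.0678 and −0.296 in INA6 and 0.00452, −0.014 and 0.00188 in JJN3). Deviations from a mean of 3 libraries are tied to each other, so these correlations cannot decide whether the numbers mark a pairing. Among the carriers reported, sign changes numbered 63, over 21 results, and in 0 of them was the value called in either setting. Under median centring these values were 0.03 (SLC25A13 in INA6), 0.02 (SLC25A23 in INA6), 0.01 (SLC25A26 in INA6), 0.04 (SLC25A29 in INA6), 0.01 (SLC25A36 in INA6), 0.01 (SLC25A15 in JJN3), 0.01 (SLC25A43 in JJN3), 0.01 (SLC25A14 between lines). Under quantile normalisation these values were 0.03 (SLC25A26 in INA6), 0.01 (SLC25A29 in INA6), 0.00 (SLC25A15 in JJN3), 0.04 (SLC25A43 in JJN3), −0.06 (SLC25A46 in JJN3), 0.01 (SLC25A14 between lines), −0.01 (SLC25A37 between lines). Leaving out each library in turn, the results that changed sign ran over −0.04 to 0.02 (SLC25A13 in INA6), −0.01 to 0.08 (SLC25A17 in INA6), −0.04 to 0.02 (SLC25A23 in INA6), −0.06 to 0.05 (SLC25A26 in INA6), −0.02 to 0.07 (SLC25A28 in INA6), −0.07 to 0.08 (SLC25A29 in INA6), −0.06 to 0.00 (SLC25A36 in INA6), −0.01 to 0.04 (SLC25A12 in JJN3), −0.01 to 0.10 (SLC25A13 in JJN3), −0.06 to 0.00 (SLC25A15 in JJN3), −0.00 to 0.02 (SLC25A17 in JJN3), −0.00 to 0.04 (SLC25A30 in JJN3), −0.06 to 0.06 (SLC25A43 in JJN3), −0.09 to 0.01 (SLC25A10 between lines), −0.01 to 0.07 (SLC25A17 between lines), −0.05 to 0.06 (SLC25A14 between lines), −0.07 to 0.01 (SLC25A15 between lines), −0.03 to 0.04 (SLC25A37 between lines), −0.00 to 0.15 (SLC25A39 between lines), −0.11 to 0.00 (SLC25A13 between lines). Of the calls, 3 of 18 in INA6, 6 of 22 in JJN3 and 4 of 8 between lines were lost under at least 1 alternative, all with the same direction. Of the results not called, 8 of 21 in INA6, 5 of 15 in JJN3 and 5 of 29 between lines were called under at least 1 alternative. The counts of partner genes stayed within 1.5 times with both scalings. Depth is unknown, and rlog shrinkage limits what can be seen in genes near the minimum.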

Other observations

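SLC25A25-AS1, a noncoding transcript named for the ATP-Mg/phosphate carrier gene, rose in INA6 by more than the carrier. Its rlog values were 7.77, 7.87 and 7.92 in INA6 knockdown libraries, against 7.35, 7.31 and 7.45 in INA6 non-targeting libraries, a difference of 0.48 (SE 0.0629, limma adjusted p = 2.36e-06), where SLC25A25 was at 0.12 (adjusted p = 0.0503). In JJN3 the transcript was at 5.92, 5.82 and 5.86 in knockdown libraries, against 5.78, 5.85 and 5.75 in non-targeting libraries, and the groups overlapped (0.07, adjusted p = 0.269), while SLC25A25 rose by 0.20.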
